A study of Mus musculus with 24 samples.

Results

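The actin genes of the mouse were followed across the expression libraries of C2C12 cells: Acta1, Actc1, Acta2, Actg2, Actb and Actg1. They were found by matching these symbols to the gene table. All 6 of the 6 symbols were among its 24043 genes, and all 6 were among the 12389 genes with enough signal to be tested. C2C12 is 1 established mouse myoblast line. Its cells divide in growth medium and fuse into myotubes when serum is lowered. Cells in normoxic growth medium were kept in DMEM with 10% fetal bovine serum at 21% oxygen, and cells in hypoxic growth medium in the same medium at 2% oxygen. Cells in normoxic differentiation medium were kept in DMEM with 2% horse serum and an ITS supplement at 21% oxygen, and cells in hypoxic differentiation medium in that medium at 2% oxygen. Each of the 4 groups had 2 RNA-seq libraries, A and B, made from total RNA with a stranded kit. The submitters call these biological replicates without saying how the cultures were separated, so p-values measure the spread between these libraries. The labels give neither the day of harvest nor the time at 2% oxygen.

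Actin is the monomer from which cells build thin filaments. Acta1 encodes the actin of adult skeletal muscle and Actc1 that of the heart, which embryonic skeletal muscle also uses. Acta2 and Actg2 encode the smooth muscle actins, and Actb and Actg1 the cytoplasmic actins found in nearly every cell. Many actin genes are controlled by serum response factor (SRF), which binds a sequence called the CArG box. Its MRTF coactivators (Mkl1 and Mkl2) are held back by free actin monomer, so that the pool of unassembled actin feeds back on actin transcription.

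The promoters of 4 of the 6 genes were in the RefSeq promoter table (build GRCm38.p6), and they are printed because they show how the CArG box is placed in genes that behaved differently in the libraries. Each run is the 250 bases upstream of the annotated start, on the minus strand, 5′ to 3′. Capitals mark CArG boxes (CC, then 6 bases of A or T, then GG) and the same pattern with 1 G or C in its core. The windows are chr8:123894776-123895025 for Acta1, chr2:114052876-114053125 for Actc1, chr19:34255374-34255623 for Acta2 and chr11:120348496-120348745 for Actg1.
Acta1: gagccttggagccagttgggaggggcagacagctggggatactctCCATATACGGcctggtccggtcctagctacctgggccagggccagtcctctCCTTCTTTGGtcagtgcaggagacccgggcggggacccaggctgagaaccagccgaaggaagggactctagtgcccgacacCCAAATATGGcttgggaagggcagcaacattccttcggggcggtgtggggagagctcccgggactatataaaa
Actc1: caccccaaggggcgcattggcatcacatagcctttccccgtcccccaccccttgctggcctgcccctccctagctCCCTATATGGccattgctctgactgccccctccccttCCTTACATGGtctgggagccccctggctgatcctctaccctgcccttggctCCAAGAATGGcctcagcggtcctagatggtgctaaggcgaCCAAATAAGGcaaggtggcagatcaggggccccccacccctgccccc
Acta2: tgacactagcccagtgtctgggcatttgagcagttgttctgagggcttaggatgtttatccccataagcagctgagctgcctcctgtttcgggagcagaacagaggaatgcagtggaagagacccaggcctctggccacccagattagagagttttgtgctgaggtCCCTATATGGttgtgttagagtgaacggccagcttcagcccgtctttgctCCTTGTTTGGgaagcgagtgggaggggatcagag
Actg1: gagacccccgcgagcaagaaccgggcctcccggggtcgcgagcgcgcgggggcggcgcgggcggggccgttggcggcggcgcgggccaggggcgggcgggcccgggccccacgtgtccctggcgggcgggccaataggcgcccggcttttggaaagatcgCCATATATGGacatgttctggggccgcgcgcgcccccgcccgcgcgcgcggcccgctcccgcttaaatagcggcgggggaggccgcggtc

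Acta1 held 1 full CArG box, CCAAATATGG, at 73 to 64 bases upstream. Actc1 held CCAAATAAGG at 47 to 38 bases upstream, and Actg1 held CCATATATGG at 90 to 81 bases upstream. Acta2 held no full CArG box in this window but had 2 copies with 1 G or C in the core, CCCTATATGG at 84 to 75 and CCTTGTTTGG at 34 to 25 bases upstream. Acta1 also had 2 such copies and Actc1 had 3, and one of those in Actc1 (175 to 166 bases upstream) has the same letters as the distal copy in Acta2. A full CArG box was in 1.47% of 32851 promoters of this length, the form with 1 G or C in 7.24% and either form in 8.59%. CANNTG, the E-box read by Myod1 and Myog, matched at 2 places in Acta1, 0 in Actc1, 3 in Acta2 and 1 in Actg1, and was in 66.2% of promoters. CATTCC or its reverse complement GGAATG, the MCAT element read by TEAD factors, matched at 1 place each in Acta1 and Acta2 and was in 12.6% of promoters. All motifs were read on both strands, and none of these matches overlapped another. A match is a description of letters and not of binding. The windows with a full CArG box were those of Acta1 and Actc1, which rose in normoxic differentiation medium, and of Actg1, which fell there. Actb and Actg2 had no promoter entry. The part of these motifs in the expression changes was not tested.

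Levels are given in FPKM, which scales reads to transcript length and library size and so allows levels to be set side by side between genes. Relative sequencing depth ranged from 0.633 to 1 (hypoxic differentiation libraries B and A), and 3 fragments on a transcript of 1 kb are worth 0.166 to 0.262 FPKM. Replicates correlated at Pearson's r of 0.958 to 0.983 across tested genes. The hypoxic differentiation libraries stood apart: 613 genes differed over 2-fold between them against 56 to 71 in the other groups. Proliferation markers (6 genes such as Mki67) summed to 26.7 FPKM in hypoxic differentiation A and 153.4 in B, against 84.9 to 174 in growth medium and 29.8 to 30.3 in normoxic differentiation medium. The expression of 9 skeletal myotube markers such as Myog and Tnnt3 summed to 29.6 to 41.4 FPKM in the normoxic growth libraries, 3.14 to 3.46 in the hypoxic growth libraries, 11813 to 12254 in normoxic and 8.93 to 19.1 in the hypoxic differentiation libraries. In bulk RNA, fewer cells of a type and less RNA per cell cannot be told apart.

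**Figure D1:**
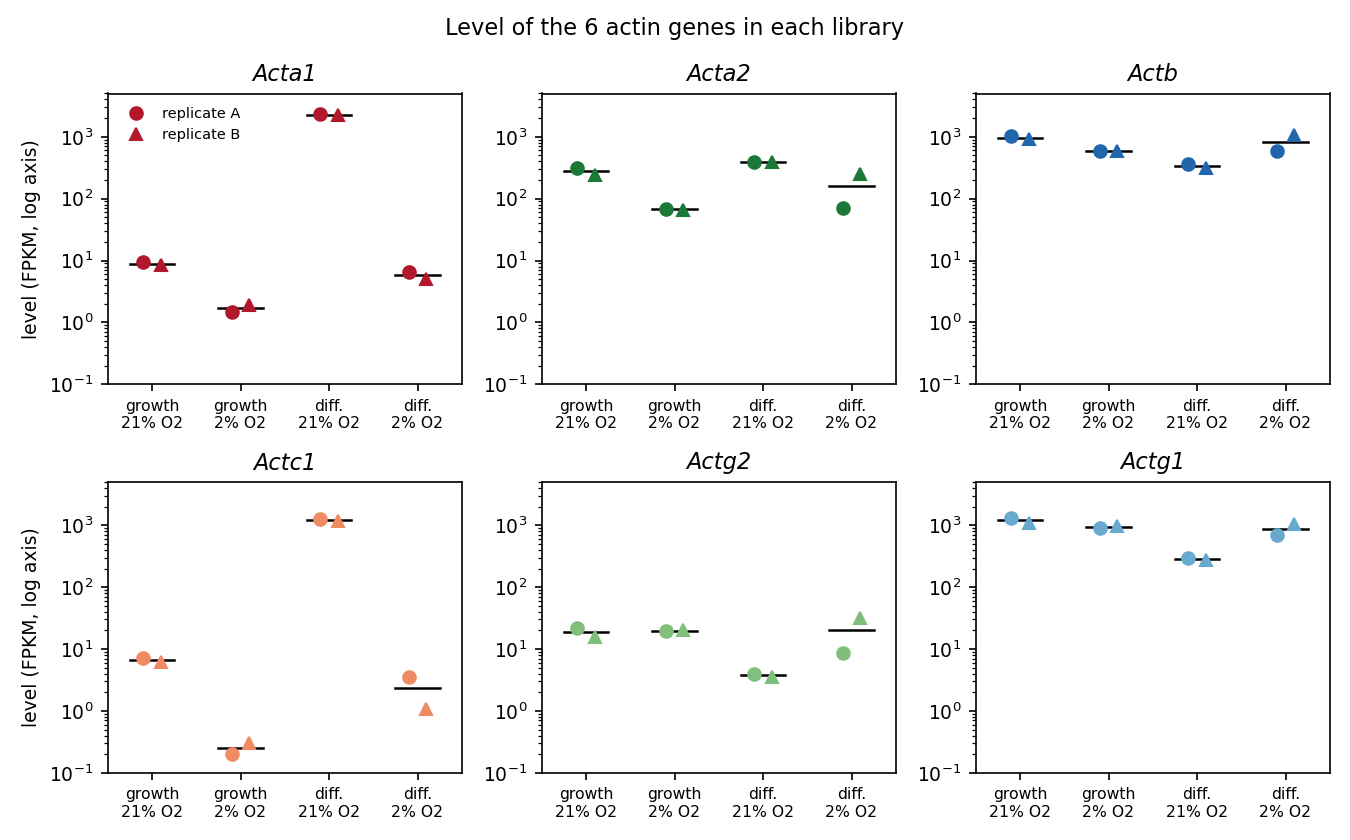
Level of each actin gene in FPKM on a log axis, with replicate A as a circle, replicate B as a triangle and the mean of both as a line, by medium and oxygen. Acta1 and Actc1 are near or above 1162 FPKM in normoxic differentiation medium and under 10 FPKM elsewhere, and the hypoxic differentiation libraries are far apart for Acta2 and Actg2.

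The striated muscle actins were the most abundant actins in normoxic differentiation medium and the least abundant in each of the other groups. Acta1 was at 9.36 and 8.35 FPKM in the normoxic growth libraries, 1.49 and 1.91 in the hypoxic growth libraries, 2299 and 2235 in the normoxic differentiation libraries, and 6.47 and 5.06 in the hypoxic differentiation libraries. No group overlapped another: the order was normoxic differentiation, normoxic growth, hypoxic differentiation, hypoxic growth. Among 24043 genes Acta1 ranked 13 by mean level in the normoxic and 8032 in the hypoxic differentiation libraries. Actc1 followed the same order at lower levels. It was at 7.12 and 6.06 FPKM in the normoxic growth libraries, 0.204 and 0.303 in the hypoxic growth libraries, 1244 and 1162 in the normoxic differentiation libraries, and 3.53 and 1.09 in the hypoxic differentiation libraries. Here too no group overlapped another, and Actc1 ranked 50 in the normoxic and 10133 in the hypoxic differentiation libraries. The values in hypoxic growth medium lie near the level of a few fragments (3 fragments on 1 kb are worth 0.186 and 0.197 FPKM there), so folds against them are imprecise.

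The smooth muscle actins did not move as a pair. Acta2 was at 314.7 and 239.4 FPKM in the normoxic growth libraries, 68.4 and 66.5 in the hypoxic growth libraries, 397 and 392.7 in the normoxic differentiation libraries, and 71.1 and 251.7 in the hypoxic differentiation libraries. Normoxic differentiation medium was highest and hypoxic growth medium lowest, while the hypoxic differentiation libraries were 3.54-fold apart and overlapped those of normoxic growth medium. Actg2 was at 22.0 and 15.5 FPKM in the normoxic growth libraries, 19.5 and 20.1 in the hypoxic growth libraries, 3.93 and 3.58 in the normoxic differentiation libraries, and 8.70 and 31.3 in the hypoxic differentiation libraries. It was lowest in normoxic differentiation medium, where Acta2 was highest, and its other groups overlapped. The summed level of 10 smooth muscle markers was 189 to 208 FPKM in normoxic growth, 218 to 229 in hypoxic growth, 130 to 135 in normoxic differentiation and 140 to 203 in hypoxic differentiation medium. Of those markers 3 stayed under 1 FPKM in all libraries: the defining smooth muscle myosin Myh11 (at most 0.0891), Myocd (above 0 in hypoxic differentiation B alone, at 0.0143) and Pln. Cald1 (50.9 to 142.7 FPKM) and Smtn (22.2 to 90.6 FPKM) made up most of each sum. Synpo2 was at 5.06 to 34.1 FPKM, and Mylk, Cnn1 and Lmod1 were at most at 8.37. Tagln was at 4.71 to 24.9 FPKM, with 4.71 and 23.8 in hypoxic differentiation A and B. The part of smooth muscle-like cells in the Acta2 and Actg2 levels was not tested.

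The cytoplasmic actins were the most abundant actins outside normoxic differentiation medium. Actb was at 1037 and 903 FPKM in the normoxic growth libraries, 584 and 598 in the hypoxic growth libraries, 358 and 317 in the normoxic differentiation libraries, and 595 and 1075 in the hypoxic differentiation libraries. Normoxic differentiation medium was lowest, and the hypoxic differentiation libraries overlapped both growth medium groups. Actg1 was at 1314 and 1088 FPKM in the normoxic growth libraries, 913 and 978 in the hypoxic growth libraries, 296 and 277 in the normoxic differentiation libraries, and 699 and 1049 in the hypoxic differentiation libraries. It too was lowest in normoxic differentiation medium, with the hypoxic differentiation values on either side of those of hypoxic growth medium. The coding sequences of the actins are close, and Actb and Actg1 have processed pseudogenes. How shared reads were assigned is not given in the sources used here, so the split between copies is uncertain.

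Within normoxic growth medium the order of levels was Actg1, Actb, Acta2, Actg2, Acta1 and Actc1, and no neighbours overlapped. The order was the same in hypoxic growth medium, again without overlap. In normoxic differentiation medium it was Acta1, Actc1, Acta2, Actb, Actg1 and Actg2, without overlap. In hypoxic differentiation medium the order of the means returned to that of the growth media. There Actg1 and Actb overlapped, and the remaining neighbours did not.

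Striated actins made up most of the summed actin signal in normoxic differentiation medium, and cytoplasmic actins most of it in the other groups. The 6 actins summed to 2704 and 2261 FPKM in the normoxic growth libraries, 1587 and 1666 in the hypoxic growth libraries, 4599 and 4387 in the normoxic differentiation libraries, and 1384 and 2413 in the hypoxic differentiation libraries. The sum made up 0.895% to 0.938% of all FPKM in normoxic differentiation medium and 0.264% to 0.514% elsewhere. The 4 muscle actins together held 12.5% ± 0.81 (SD, n = 2) of the actin sum in the normoxic growth libraries, 5.49% ± 0.222 in the hypoxic growth libraries, 86.1% ± 0.49 in the normoxic differentiation libraries and 9.24% ± 3.88 in the hypoxic differentiation libraries. The library values were 13.1% and 11.9%, 5.64% and 5.33%, 85.8% and 86.5%, and 6.49% and 12.0% in that order of groups. Among these, hypoxic differentiation B lay within the range of normoxic growth medium, and no other groups overlapped. With 2 libraries against 2 the exact permutation test, two-sided, can go no lower than p = 0.333, which it gave for the muscle share in each of the 4 two-group comparisons.

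Single isoforms carried the change in shares. Acta1 made up 50.5% ± 0.673 (SD, n = 2) of the actin sum in normoxic differentiation medium but at most 0.467% in any other library. Actc1 made up 26.8% ± 0.406 there and at most 0.268% elsewhere. The share of Acta2 was 11.6% and 10.6% in the normoxic growth libraries, 4.31% and 3.99% in the hypoxic growth libraries, 8.63% and 8.95% in the normoxic differentiation libraries and 5.14% and 10.4% in the hypoxic differentiation libraries. Acta2 therefore had a higher level but a smaller share in normoxic differentiation than in normoxic growth medium, the sum being larger. Actg2 held 0.0816% to 0.0853% in normoxic differentiation medium and 0.628% to 1.30% elsewhere. Actb and Actg1 held 7.24% to 7.79% and 6.30% to 6.44% in normoxic differentiation medium. In the 6 remaining libraries Actb held 35.9% to 44.5% and Actg1 held 43.5% to 58.7%.

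**Figure D2:**
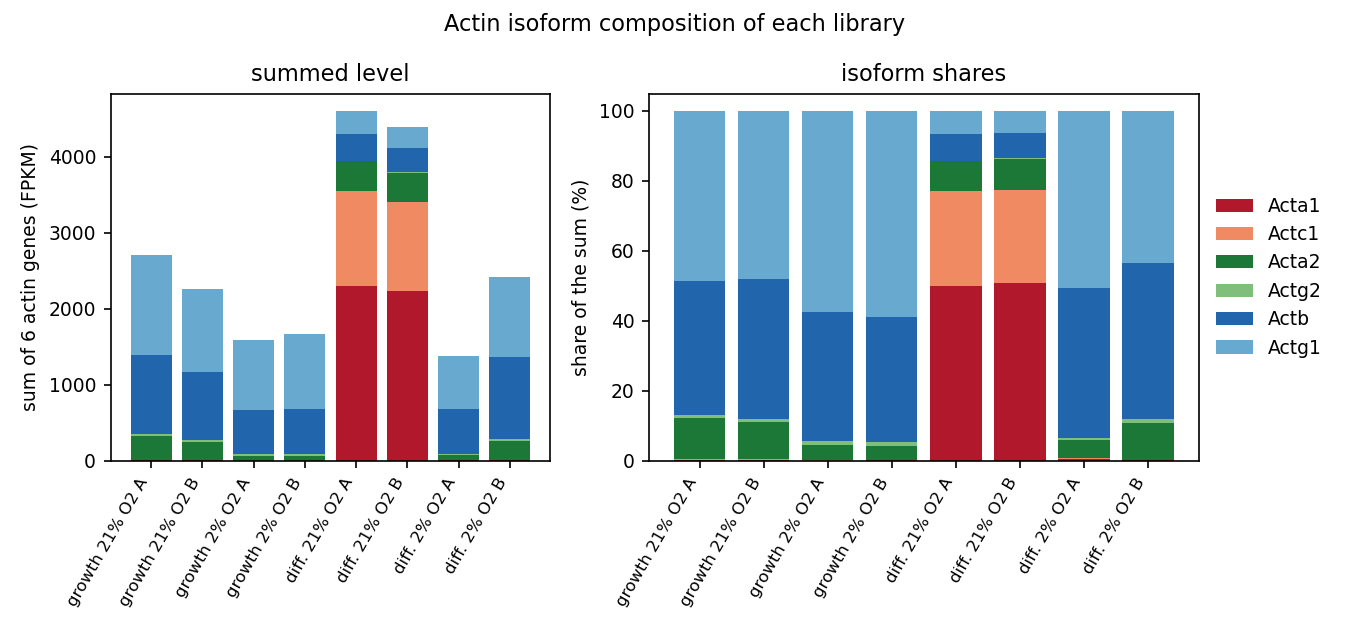
Stacked bars of the 6 actin genes in each of the 8 libraries, as summed FPKM on the left and as percent of the sum on the right. Acta1 and Actc1 fill 77.0% to 77.4% of the bars of normoxic differentiation medium, and Actb and Actg1 fill 86.9% to 94.7% of all the others.

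Ratios between the members of each class also differed between groups. Acta1 was 1.31 and 1.38 times Actc1 in the normoxic growth libraries, 7.27 and 6.30 times in the hypoxic growth libraries, 1.85 and 1.92 times in the normoxic differentiation libraries, and 1.83 and 4.63 times in the hypoxic differentiation libraries. The high ratio in hypoxic growth medium rests on the few fragments of Actc1. The ratio of Acta2 to Actg2 was 14.3 and 15.4 in the normoxic growth libraries, 3.51 and 3.31 in the hypoxic growth libraries, 101.1 and 109.6 in the normoxic differentiation libraries, and 8.18 and 8.04 in the hypoxic differentiation libraries. No group overlapped another. In hypoxic differentiation medium the levels of both genes were over 3-fold higher in B than in A, but their ratio was nearly the same. Actg1 to Actb was 1.27 and 1.2, then 1.57 and 1.64, then 0.827 and 0.871, then 1.17 and 0.976 in the same order of groups. Actb thus exceeded Actg1 in both normoxic differentiation libraries and in hypoxic differentiation B.

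**Figure D3:**
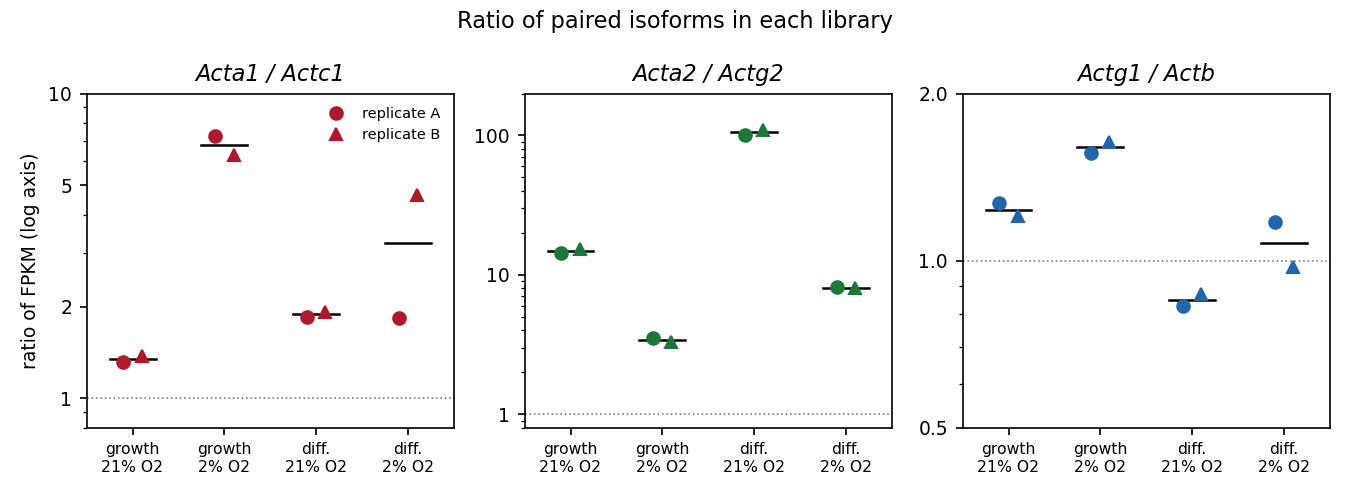
Ratio of FPKM between the members of each actin class in each library on log axes, with replicate A as a circle, replicate B as a triangle, the mean as a line and a dotted line at 1. The Acta2 to Actg2 ratio runs from 3.31 to 109.6 with all 4 groups apart, and the Actg1 to Actb ratio is under 1 in normoxic differentiation medium.

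The first comparison asks what the switch to differentiation medium did at 21% oxygen. Changes are differences of log2(FPKM + 1) ± SE from limma, and a change was called at a Benjamini-Hochberg adjusted p under 0.05 over all tested genes. Acta1 rose by 7.85 ± 0.13 (adjusted p = 1.82e-07), a 256-fold difference of mean FPKM, and Actc1 by 7.31 ± 0.32 (adjusted p = 4.88e-06), a 182-fold difference. Actg1 fell by 2.06 ± 0.20 (adjusted p = 0.000135), Actg2 by 2.04 ± 0.50 (adjusted p = 0.0104) and Actb by 1.52 ± 0.26 (adjusted p = 0.0019). In mean FPKM these 3 genes were 4.19-fold, 5.0-fold and 2.87-fold lower. Acta2 changed by 0.52 ± 0.51 (adjusted p = 0.396, 95% interval -0.70 to 1.75), with both differentiation libraries above both growth libraries. So 5 of 6 actin genes were called where 66.5% of all tested genes were called, 2 higher (25.5% of all genes) and 3 lower (41% of all genes). The median change of all genes was -0.20. The call for Actg2 was lost without normoxic growth A (-1.80, adjusted p = 0.067), normoxic differentiation A (adjusted p = 0.0519) or B (adjusted p = 0.0627). Acta2 passed the test without hypoxic differentiation A (adjusted p = 0.0109) or B (adjusted p = 0.00913) and in a fit of the 4 compared libraries alone (adjusted p = 0.0172), always at 0.52.

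At 2% oxygen the same switch of medium left the striated actins at a few FPKM. Acta1 rose by 1.32 ± 0.13 (limma, adjusted p = 0.000771), which is 3.4-fold in mean FPKM. Actc1 rose by 1.30 ± 0.32 (adjusted p = 0.0197), or 9.11-fold. These were the 2 of 6 genes called, both higher, against 40.9% of all genes called and 23.3% called higher. The median of all genes was 0.07. Acta2 changed by 0.98 ± 0.51 (adjusted p = 0.172, interval -0.25 to 2.21), Actb by 0.44 ± 0.26 (adjusted p = 0.218, interval -0.18 to 1.05), Actg1 by -0.14 ± 0.20 (adjusted p = 0.604, interval -0.61 to 0.33) and Actg2 by -0.23 ± 0.50 (adjusted p = 0.749, interval -1.43 to 0.97).

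Most of these values depended on which hypoxic differentiation library was used. Library B was higher than A for 4 actins, by 3.60-fold for Actg2, 3.54-fold for Acta2, 1.81-fold for Actb and 1.5-fold for Actg1. It was lower for the 2 striated actins, at 0.783 times A for Acta1 and 0.310 times A for Actc1. Without library A, leaving 1 library that is assumed to vary like the other groups, Acta2 changed by 1.88 (adjusted p = 0.000503), Actb by 0.86 (adjusted p = 0.00252), Actg2 by 0.64 (adjusted p = 0.0348) and Actg1 by 0.15 (adjusted p = 0.389). Without library B the values were 0.08 for Acta2 (adjusted p = 0.722), 0.01 for Actb (adjusted p = 0.961), -1.10 for Actg2 (adjusted p = 0.00545) and -0.44 for Actg1 (adjusted p = 0.0392). Actg2 and Actg1 thus changed sign with the library left out. The part of the proliferation markers, which differ between these libraries as given above, in the actin values was not tested. Acta1 was called without either library. Actc1 was at 0.74 without A and 1.85 without B, and its call was lost without hypoxic growth A (adjusted p = 0.0946) or B (adjusted p = 0.0807), without normoxic differentiation B (adjusted p = 0.0505) and in the fit of the compared libraries alone (adjusted p = 0.0802). With a pseudocount of 0.1 or 0.01 in place of 1 its change was 2.57 or 2.93.

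**Figure D4:**
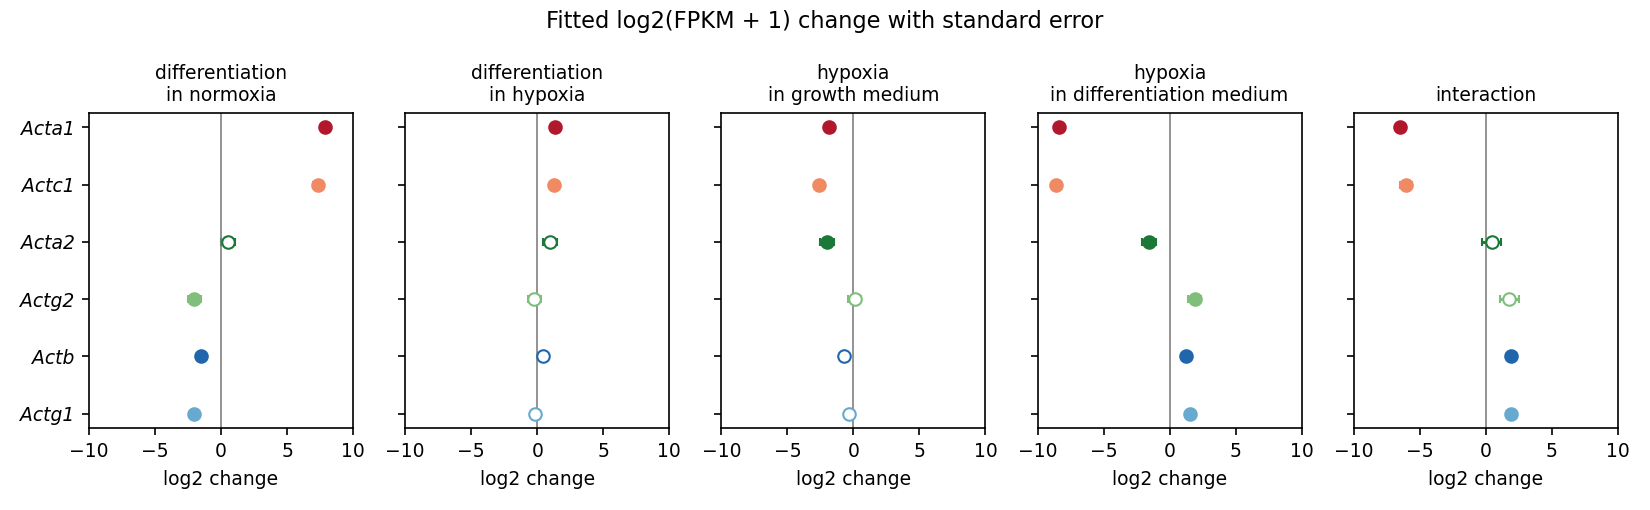
Fitted difference of log2(FPKM + 1) for each actin gene in the 4 two-group comparisons and in the interaction, with standard errors as bars, filled points for genes called by limma and open points for the others. The rise of Acta1 is 7.85 in normoxia and 1.32 in hypoxia. All 6 genes are called for hypoxia in differentiation medium, where 65.2% of all tested genes are called.

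Low oxygen in growth medium lowered 3 of the 4 muscle actins. Acta1 fell by 1.87 ± 0.13 (limma, adjusted p = 0.000154), or 5.22-fold in mean FPKM. Actc1 fell by 2.60 ± 0.32 (adjusted p = 0.00124) and Acta2 by 2.01 ± 0.51 (adjusted p = 0.0202), the latter 4.11-fold. Actg2 changed by 0.09 ± 0.50 (adjusted p = 0.904), Actb by -0.71 ± 0.26 (adjusted p = 0.0653, interval -1.32 to -0.10) and Actg1 by -0.34 ± 0.20 (adjusted p = 0.213). Thus 3 of 6 genes were called, all lower, where 41.4% of all genes were called and 28% were called lower, with a median of -0.14. Both hypoxic values of Actb and Actg1 lay under both normoxic values. Actb passed without hypoxic differentiation A (adjusted p = 0.00196) or B (adjusted p = 0.00152), with library weights (adjusted p = 0.0068) and in the fit of the compared libraries (adjusted p = 0.00248), and Actg1 passed without hypoxic differentiation A (adjusted p = 0.0417) or B (adjusted p = 0.0377). The call for Acta2 was lost without normoxic growth A (adjusted p = 0.11) or B (adjusted p = 0.0595), hypoxic growth A (adjusted p = 0.0879) or B (adjusted p = 0.0911) and normoxic differentiation B (adjusted p = 0.0505). The change of Actc1 was -4.25 or -4.67 with a pseudocount of 0.1 or 0.01.

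In differentiation medium, cells at 2% oxygen had far lower striated actin and higher cytoplasmic actin than cells at 21%. Acta1 was lower by 393-fold in mean FPKM (log2 change -8.40 ± 0.13, limma adjusted p = 1.4e-07) and Actc1 by 521-fold (-8.61 ± 0.32, adjusted p = 2.21e-06). Acta2 was 2.45-fold lower (-1.55 ± 0.51, adjusted p = 0.0334). Actg2 was 5.33-fold higher (1.90 ± 0.50, adjusted p = 0.0141), Actg1 3.05-fold higher (1.58 ± 0.20, adjusted p = 0.000467) and Actb 2.47-fold higher (1.24 ± 0.26, adjusted p = 0.00483). All 6 genes were called, 3 higher and 3 lower, against 65.2% of all genes called, 37.5% higher and 27.7% lower. The median of all genes was 0.15. Without hypoxic differentiation A the change was -0.65 for Acta2, 2.77 for Actg2, 1.67 for Actb and 1.87 for Actg1. Without B it was -2.46, 1.03, 0.82 and 1.28, and all 4 genes stayed called in either fit. The Acta2 call was lost in 9 other settings: without any 1 of the 6 libraries outside hypoxic differentiation medium (adjusted p = 0.0567 to 0.124), without the filter on low values (0.0588), with robust moderation (0.0663) and in the fit of the compared libraries (0.104). The Actg2 call was lost without normoxic differentiation A (adjusted p = 0.0637) or B (0.077) and in the fit of the compared libraries (0.0598).

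The interaction is the change with medium at 2% oxygen minus that at 21%. It was -6.52 ± 0.18 for Acta1 (limma, adjusted p = 2.21e-06) and -6.01 ± 0.46 for Actc1 (adjusted p = 0.000105), so the striated actins rose less in hypoxia. It was 1.95 ± 0.36 for Actb (adjusted p = 0.00427) and 1.92 ± 0.28 for Actg1 (adjusted p = 0.00155), so the fall of the cytoplasmic actins in normoxia was not matched in hypoxia. Called genes were 4 of 6, 2 in each direction, against 54.1% of all genes, 35.4% positive and 18.7% negative. Actg2 was at 1.80 ± 0.71 (adjusted p = 0.0695) and passed without hypoxic differentiation A (2.67, adjusted p = 0.000303) or B (0.94, adjusted p = 0.0168) and with library weights (adjusted p = 0.0147). Acta2 was at 0.46 ± 0.73 (adjusted p = 0.618), with 1.36 without A (adjusted p = 0.00188) and -0.45 without B (adjusted p = 0.0968). Rescaling the libraries by median-of-ratios moved the median of all genes from 0.27 to -0.01 here, from -0.20 to 0 for the medium change at 21% oxygen, from -0.14 to -0.02 for hypoxia in growth medium and from 0.15 to 0 for hypoxia in differentiation medium. After that scaling the medium change at 21% oxygen was -1.27 for Actb and -1.81 for Actg1, and the interaction 1.63 and 1.59, all still called. No actin gene changed sign or call under median-of-ratios or upper-quartile scaling.

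The genes with profiles most like each actin were found by the root mean square difference of centred log2(FPKM + 1) over the 8 libraries, among 7864 genes. For Acta1 they were Tnni1 (0.278) and Tnni2 (0.339), troponin I of slow and fast muscle, and Tmem8c (0.401), which encodes the fusion protein myomaker. Actc1 ranked between them at 0.365. For Actc1 the nearest was Acta1, then the myogenic factor Myog (0.373), Tnni2 (0.389) and the calcium pump Atp2a1 (0.473). The neighbours of Acta2 were no muscle genes: the lamin Lmnb2 (0.263), the cell death gene Bid (0.34) and the fatty acid desaturase Scd1 (0.355). Those of Actg2 were the mitotic motor Kifc1 (0.181), the DNA ligase Lig1 (0.195) and the condensin subunit Ncapd2 (0.24). Actg1 was at rank 21 for Actg2 (0.349), while Acta2 was at rank 7182 (1.712). For Actb the nearest were Wdr1 (0.141), which helps cofilin take filaments apart, Arhgap22 (0.152) and Ctc1 (0.155). For Actg1 they were Pygb (0.109), Fam110a (0.113) and Zfp414 (0.135), with Actb at rank 264 (0.339). The libraries of a group share their condition, so these distances are descriptions of 4 conditions and not of 8 independent samples. Differences between the hypoxic differentiation libraries, such as the 3.60-fold difference of Actg2, also enter them.

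The SRF axis was described from a list of 4 genes. Srf was at 22.2 and 18.5 FPKM in the normoxic growth libraries, 10.7 and 10.7 in the hypoxic growth libraries, 17.5 and 17.8 in the normoxic differentiation libraries, and 6.75 and 15.3 in the hypoxic differentiation libraries. It was lower in every hypoxic library than in every normoxic one, but neither oxygen comparison passed with all 8 libraries (-0.86 ± 0.31 in growth medium, limma adjusted p = 0.0655, and -0.73 ± 0.31 in differentiation medium, adjusted p = 0.0782). In growth medium Srf passed, always at -0.86, without hypoxic differentiation A (adjusted p = 0.000837) or B (adjusted p = 0.000655), with library weights (adjusted p = 0.00424) and in the fit of the compared libraries (adjusted p = 0.00162). In differentiation medium it passed without hypoxic differentiation B (-1.27, adjusted p = 0.000166), with library weights (adjusted p = 0.0361) and when the libraries were rescaled by median-of-ratios (-0.90, adjusted p = 0.0242) or by upper quartile (-0.78, adjusted p = 0.037). Mkl1, the MRTF-A gene, was at 35.8 and 28.6, then 17.4 and 18.4, then 17.1 and 15.0, then 23.0 and 27.5 FPKM in the same order. Normoxic growth medium was highest, then hypoxic differentiation medium, hypoxic growth medium and normoxic differentiation medium, and no groups overlapped. Mkl1 fell with medium in normoxia (-0.96 ± 0.14, adjusted p = 0.000927) and with hypoxia in growth medium (-0.80 ± 0.14, adjusted p = 0.00454), and was higher in hypoxic than in normoxic differentiation medium (0.62 ± 0.14, adjusted p = 0.00689), a call lost without normoxic differentiation B (adjusted p = 0.0557). Its rise with medium in hypoxia (0.47 ± 0.14, adjusted p = 0.0355) was lost in 9 alternatives (adjusted p = 0.0546 to 0.153), among them without hypoxic growth A or B. Mkl2, the MRTF-B gene, fell with medium in normoxia (-0.54 ± 0.13, adjusted p = 0.00899), a call lost without normoxic differentiation A (adjusted p = 0.051) or B (adjusted p = 0.0564). Mkl2 was higher in hypoxic than in normoxic differentiation medium (0.60, limma adjusted p = 0.00566). The interaction was 1.43 for Mkl1 (adjusted p = 0.00123) and 0.69 for Mkl2 (adjusted p = 0.0167). The Mkl2 interaction lost its call after median-of-ratios scaling (0.41, adjusted p = 0.0866). It also lost it without any 1 library of hypoxic growth or normoxic differentiation medium (0.68 to 0.71). Myocd was not tested.

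Lists of actin-handling genes were read against all tested genes, of which 25.5% rose and 41% fell with medium at 21% oxygen and 23.3% rose and 17.6% fell at 2% oxygen. The lean to falls at 21% oxygen, with 38.4% of calls higher, was gone after median-of-ratios scaling, with 51.5% higher. Among 18 genes that bind actin monomer or turn filaments over, 4 rose and 10 fell at 21% oxygen, the same lean as all genes, with a median of -0.59 beside -0.20. Cap2, the striated muscle form of cyclase-associated protein, rose by 4.90 ± 0.10 (limma, adjusted p = 2.16e-07), from 1.76 and 1.76 to 81.4 and 81.9 FPKM, and was at 0.548 and 0.493 FPKM in hypoxic differentiation medium. Its widely expressed relative Cap1 fell by 1.64 ± 0.08 (adjusted p = 5.82e-06), from 173.6 and 165.5 to 56.0 and 51.2 FPKM. Cfl2, muscle cofilin, rose by 1.56 ± 0.12 (adjusted p = 5.39e-05), and Gsn, the severing protein gelsolin, fell by 2.44 ± 0.14 (adjusted p = 1.3e-05). At 2% oxygen 7 of the 18 rose with the medium and 1 fell (median 0.21 beside 0.07). That total of 8 was 5 without hypoxic growth A and 4 without B. In hypoxic against normoxic differentiation medium 11 were higher and 5 lower (37.5% and 27.7% of all genes), with Cap1 at 2.01, Cap2 at -5.77, Cfl2 at -1.60 and Gsn at 1.32. In growth medium hypoxia raised 1 and lowered 8 (13.5% and 28% of all genes).

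The Arp2/3 complex starts branched filaments. Of its 9 subunit genes 8 fell and 1 rose with differentiation medium at 21% oxygen (median -0.55), where 41% of all genes fell, while 8 rose and 0 fell at 2% oxygen (median 0.63), where 23.3% of all genes rose. The gene that rose in normoxia was Arpc5l, the alternative form of the Arpc5 subunit, from 28.4 and 25.2 to 97.3 and 101.5 FPKM (1.85 ± 0.11, limma adjusted p = 1.63e-05). Arpc5 itself fell from 72.7 and 75.8 to 25 and 27.0 FPKM (-1.48 ± 0.10, adjusted p = 2.59e-05). The 2 forms thus changed places, and in hypoxic differentiation medium Arpc5 was at 81.7 and 93.6 and Arpc5l at 32.3 and 38.3 FPKM. Arpc1b fell by 1.37 ± 0.08 (adjusted p = 2.09e-05). The interaction was called for all 9 subunits, 8 positive and 1 negative (median 1.24 beside 0.27 for all genes, of which 35.4% were positive and 18.7% negative). In growth medium hypoxia lowered 8 of 9 (median -0.39), beside 28% of all genes, but 4 were called after median-of-ratios scaling, 3 after upper-quartile scaling, 3 without hypoxic growth A and 2 without B.

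Formins elongate straight filaments, and leiomodins start filaments in muscle. Of 15 tested genes 4 rose and 8 fell with medium at 21% oxygen (median -0.81), beside 25.5% and 41% of all genes. Lmod2 went from 0.0352 and 0.136 to 166.5 and 156.9 FPKM (7.23 ± 0.11, limma adjusted p = 1.82e-07) and Lmod3 from 0.0914 and 0.0940 to 66.0 and 69.1 FPKM (5.97 ± 0.09, adjusted p = 1.82e-07). Their growth medium values are under the level of 3 fragments on 1 kb, so these changes depend on the pseudocount. Both genes passed the filter on low values through normoxic differentiation medium alone (means 161.7 and 67.6 FPKM), the group in which they rose. Their calls, and their place among the 4 that rose, are therefore not independent of that filter. In hypoxic differentiation medium Lmod2 was at 0.171 and 0.0386 and Lmod3 at 0.148 and 0.10 FPKM. The formin Inf2 fell by 2.38 ± 0.10 (adjusted p = 3.27e-06) and Fmnl3 by 1.54 ± 0.13 (adjusted p = 6.67e-05), and Inf2 was higher by 2.53 in hypoxic than in normoxic differentiation medium. At 2% oxygen 1 rose and 5 fell with the medium, beside 23.3% and 17.6% of all genes. That total of 6 was smaller without hypoxic growth B. Hypoxia in differentiation medium raised 4 and lowered 7 (37.5% and 27.7% of all genes), a total of 11 that was 7 without normoxic differentiation B.

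Among 6 tested capping genes 2 rose and 3 fell with medium at 21% oxygen (median -0.46), shares near the 25.5% and 41% of all genes. Tmod1, which caps the pointed end in striated muscle, rose from 5.19 and 5.64 to 50.1 and 49.6 FPKM (2.99 ± 0.11, limma adjusted p = 2.5e-06) and was at 0.743 and 1.05 FPKM in hypoxic differentiation medium. Its widely expressed relative Tmod3 fell (-0.88 ± 0.11, adjusted p = 0.000497). Tmod4, a further relative in the list, did not rise, with 2.04 and 1.43 FPKM before and 1.52 and 1.31 after. Tmod2 was at most at 0.0938 FPKM in any library and was not tested. The barbed-end capping subunit Capza2 rose by 1.00 ± 0.10 (adjusted p = 0.000138), and Capzb fell by 1.17 ± 0.11 (adjusted p = 0.000129). Prefoldin and the CCT chaperonin fold new actin. Of 13 tested genes 8 rose and 3 fell at 21% oxygen (median 0.31), beside 25.5% and 41% of all genes. Cct8 rose by 0.97 ± 0.07 (adjusted p = 3.09e-05) and Cct6a by 0.96 ± 0.06 (adjusted p = 2.51e-05), while the prefoldin subunits Pfdn5 (-0.73 ± 0.12, adjusted p = 0.00179) and Vbp1 (-0.60 ± 0.14, adjusted p = 0.00833) fell. The Vbp1 call was lost without normoxic growth B (adjusted p = 0.0511) or normoxic differentiation B (adjusted p = 0.0606). At 2% oxygen 9 of 13 rose and 2 fell with the medium (median 0.43), beside 23.3% and 17.6% of all genes, a total of 11 that was 6 without hypoxic growth B. Cct8 was 0.66 lower and Cct6a 0.90 lower on the log2 scale in hypoxic than in normoxic differentiation medium.

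**Figure D5:**
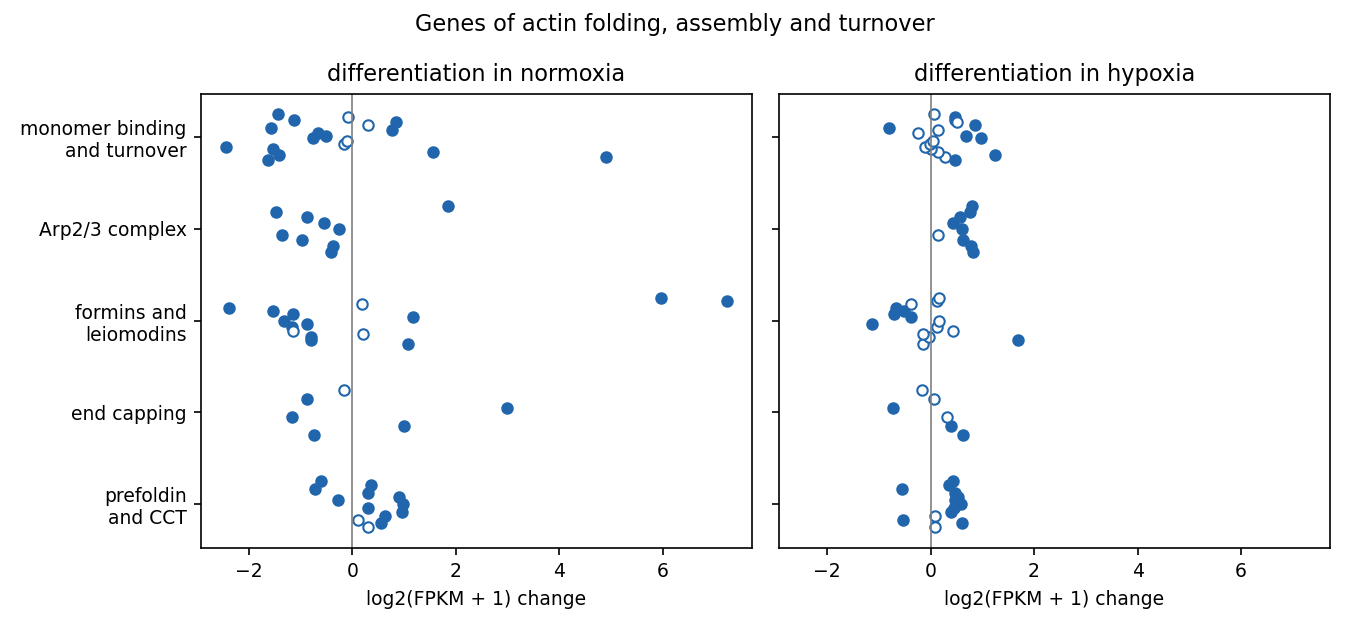
Change of log2(FPKM + 1) with differentiation medium for each tested gene of 5 lists, at 21% oxygen on the left and 2% oxygen on the right, with filled points for genes called by limma. Of the 9 Arp2/3 genes 8 lie below 0 on the left and all lie above 0 on the right, and Lmod2 (7.23), Lmod3 (5.97) and Cap2 (4.90) stand far to the right in normoxia alone.

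Markers of other cell types and states were read in the same libraries. Of all tested genes 25.5% rose and 41% fell with medium at 21% oxygen, and 23.3% rose and 17.6% fell at 2% oxygen. The 4 cardiomyocyte and 3 osteoblast genes tested are too few to set apart from these shares. Of 9 cardiomyocyte markers 2 (Nppa and Tbx5) were at 0 in all libraries and 4 stayed under 1 FPKM, and the list summed to 5.22 to 9.47 FPKM in growth medium, 7.74 to 8.36 in normoxic and 5.95 to 15.9 in hypoxic differentiation medium. Of its 4 tested genes 0 rose and 1 fell with medium at 21% oxygen. Adipocyte markers summed to at most 1.18 FPKM in any library, and none of the 6 was tested. Osteoblast markers summed to 9.43 to 23.4 FPKM in growth medium, 86.9 to 105 in normoxic and 6.75 to 12.6 in hypoxic differentiation medium, with 1 gene (Bglap) higher and 2 lower of 3 tested with medium at 21% oxygen. Of 7 tested smooth muscle markers 1 rose and 3 fell with medium at 21% oxygen (25.5% and 41% of all genes), and 0 rose and 1 fell at 2% oxygen, where 5 were called without hypoxic differentiation B. All 9 tested myotube markers rose with medium at 21% oxygen (median 7.61) and 5 rose at 2% oxygen (median 0.69), a count that was 2 without hypoxic growth A or B. The 6 proliferation markers all fell at 21% oxygen (median -2.21), but 0 to 1 were called without a library of the compared groups. The part of these cell types in the actin levels was not tested. Among the 9 myotube markers, Actn2 and Ryr1 passed the filter on low values through normoxic differentiation medium alone (means 42.1 and 42.2 FPKM). For these genes the call of a rise at 21% oxygen is not independent of that filter.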

How the data were processed

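The deposited table holds FPKM values by the authors, who used STAR 2.5.1b and Cufflinks 2.2.1 with build mm9, per the submitters' processing notes. The annotation, use of strand, handling of shared reads and scaling are not given in the sources used here. Although the table is named as counts, its values are not whole, and no count test was run. Fitted values are log2(FPKM + 1) in limma 3.58.1 (R 4.3.3) with a trended prior (2.61 degrees of freedom beside 4 residual), over 8 libraries together. Genes needed a mean of at least 1 FPKM in 1 group (12389 of 17914 above 0). Tests were two-sided with Benjamini-Hochberg adjustment over all tested genes and a threshold of 0.05. The fit was also run on simulated data, but with far fewer changed genes and no deviating library, so that run does not speak to these data. Relative depth came from the steps between low values. Of 137 symbols in 14 lists, 135 were in the table. From each list the up to 2 genes with the largest called rise and fall with medium at 21% oxygen are named, with all genes of the SRF list and the 3 nearest profiles of each actin among genes reaching 10 FPKM. Members and lists were chosen with earlier results of these data known. Alternatives covered the pseudocount, filter, scaling, robust moderation, library weights, replicate block, the compared libraries alone, each library left out and the share's denominator. Promoters are from another build than the files, and only their letters were used. ChIP-seq samples and their inputs were not analysed here.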

Additional observations from a re-analysis of the deposited data

Results flagged for a closer look

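The response of 4 of the 6 actin genes to differentiation medium differed between 2% and 21% oxygen by the interaction test of limma. Of all tested genes 54.1% were called in that test, 35.4% positive and 18.7% negative. The interaction was -6.52 ± 0.18 for Acta1 (adjusted p = 2.21e-06) and -6.01 ± 0.46 for Actc1 (adjusted p = 0.000105), whose rise was smaller at 2% oxygen. It was 1.95 ± 0.36 for Actb (adjusted p = 0.00427) and 1.92 ± 0.28 for Actg1 (adjusted p = 0.00155), whose fall at 21% oxygen was not called at 2%. These 4 calls held in each alternative run.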

How the results depend on the processing

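Without 1 library at a time, the genes called numbered 2501 to 6529 for the medium change at 2% oxygen (5073 with all 8 libraries) and 2997 to 6844 for hypoxia in growth medium (5135). Called actin genes numbered 1 to 5 and 2 to 5 there. A fit of the compared libraries alone called 3034 genes and 1 actin gene for the medium change at 2% oxygen. Signs turned for Actg2 (-1.10 to 0.64) and Actg1 (-0.44 to 0.15) with medium at 2% oxygen, Actg2 with hypoxia in growth medium (-0.14 to 0.33) and Acta2 in the interaction (-0.45 to 1.36), all uncalled with 8 libraries. So did uncalled changes of Srf with medium at 2% oxygen (-0.59 to 0.48) and in the interaction (-0.40 to 0.67), and of Mkl2 with hypoxia in growth medium (-0.25 to 0.05). Median-of-ratios scaling turned Srf with medium at 21% oxygen (0.05) and in the interaction (-0.18) and Mkl2 with hypoxia in growth medium (0.03), and upper-quartile scaling the latter pair (-0.08 and 0.05). The muscle share, in the order normoxic growth, hypoxic growth, normoxic differentiation, hypoxic differentiation, was 24.2%, 13.1%, 92.0% and 17.2% without Actg1 in the sum and 20.5%, 8.62%, 93.1% and 16.5% without Actb. Median-of-ratios scaling moved the share of calls that were higher from 38.4% to 51.5% for the medium change at 21% oxygen, from 56.9% to 49.1% for that at 2% oxygen, from 32.6% to 46.8% for hypoxia in growth medium, from 57.5% to 48.2% for hypoxia in differentiation medium and from 65.5% to 47.4% in the interaction. Upper-quartile scaling gave 45.5%, 48.2%, 49.1%, 54.9% and 53.8% in that order. Libraries with the same letter did not deviate together (correlations -0.17 to 0.04), and with the letter as a replicate block 7931, 4453, 4634, 7802 and 6273 genes were called in the order of the report, beside 8241, 5073, 5135, 8075 and 6707, with the same numbers of actin genes. The cause of these shifts was not tested. With 2 libraries a group and few fragments of Actc1 in hypoxic growth medium, small differences could not be resolved.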

Other observations

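Of 7 genes that modify actin protein 2 were higher and 4 lower with differentiation medium at 21% oxygen, beside 25.5% and 41% of all tested genes. Setd3, which methylates a histidine of actin, rose by 0.71 ± 0.08 (limma, adjusted p = 0.000268), from 26.4 and 28.2 to 43.5 and 46.9 FPKM, and was lower by 0.58 on the log2 scale in hypoxic than in normoxic differentiation medium. Of the MICAL oxidases, which disassemble filaments by oxidising actin, Mical3 rose by 0.77 ± 0.10 (adjusted p = 0.000578) and Mical2 fell by 0.92 ± 0.22 (adjusted p = 0.0099). The Mical2 call was lost without normoxic differentiation A (adjusted p = 0.0526) or B (adjusted p = 0.0581). Msrb2, a methionine sulfoxide reductase, fell by 0.80 ± 0.17 (adjusted p = 0.00603), from 1.51 and 0.827 to 0.321 and 0.153 FPKM. These values are near the level of a few fragments. Msrb2 passed the filter on low values through normoxic growth medium alone (mean 1.17 FPKM), the group from which it fell.

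Of 15 actin-related and actin-like genes 5 were at 0 in all libraries and 8 were tested, of which 2 rose and 3 fell with medium at 21% oxygen (median -0.04), about the shares of all genes (25.5% and 41%), and 4 rose and 0 fell at 2% oxygen (23.3% and 17.6% of all genes). The dynactin subunit Actr1a fell by 0.86 ± 0.10 (limma, adjusted p = 0.000289), from 60.4 and 54.5 to 32.2 and 30.2 FPKM, while its paralog Actr1b rose by 0.40 ± 0.08 (adjusted p = 0.00482), from 37.0 and 36.3 to 49.8 and 47.3 FPKM. In hypoxic differentiation medium Actr1a was at 55.9 and 63.7 FPKM and Actr1b at 45.1 and 51.1. Actr6, which rose by 0.43 ± 0.10 (adjusted p = 0.00899), lost its call without normoxic differentiation B (adjusted p = 0.0676), where 3 of the 8 genes were called.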
